A study of Mus musculus with 6 samples.

Results

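Titin (Ttn), nebulin (Neb), the sarcomeric alpha-actinins (Actn2 and Actn3), the myomesins (Myom1, Myom2 and Myom3), telethonin (Tcap) and the PDZ-LIM protein Ldb3 build the ordered scaffold of the sarcomere. These 9 genes were selected by symbol, with earlier results of these data known, and every transcript row that carried their symbols was used. They account for 60 of 105129 transcript rows and 9 of 33641 gene symbols in an expression table of mouse quadriceps muscle. The table holds 6 libraries. Of these, 3 came from mice homozygous for an allele of Nr3c1, the glucocorticoid receptor gene, that copies the human variant rs6190, and 3 came from mice carrying only the reference allele (WT). Both groups were male littermates of heterozygous parents, 4 months old (about 16 weeks), whose tissue was frozen at about ZT4, that is 4 h after lights on. Strain and backcross are not stated in the labels. The allele is present in the germ line, so it was carried by every cell type of the muscle. Each sample is labelled as a replicate with no animal number, so p-values measure the spread between these samples only, which may be technical.

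The sarcomere is the contractile unit of striated muscle. Alpha-actinin cross-links the actin filaments of neighbouring sarcomeres at the Z-disc, where telethonin caps the end of titin and Ldb3 binds alpha-actinin. Titin runs from the Z-disc to the M-band and sets passive elasticity, nebulin runs along the thin filament from the Z-disc, and myomesins link the thick filaments at the M-band. Actn3 is made mainly in fast glycolytic fibres, whereas Actn2 is made in all skeletal fibres and in heart. Among the myomesins, Myom1 is found in all striated muscle, Myom2 (M-protein) in fast fibres and heart, and Myom3 mainly in fibres of intermediate speed.

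Expression is given as TPM, transcripts per 1000000, which is already divided by the length of each transcript row. Levels can thus be set side by side between genes, except that sums of some genes rest largely on short rows. TPM keeps no sequencing depth, and no counting interval can be attached to these values. One library, WT replicate 3, stood apart from the other 5. The 8 slow-fibre markers summed to 204.6 TPM in WT replicate 3, to 1006 and 1560 TPM in the other WT libraries, and to 1668, 9095 and 1984 TPM in homozygous replicates 1, 2 and 3. The 10 fast-fibre markers summed to 221500 TPM in WT replicate 3 and to between 93250 and 126000 TPM in the other 5 libraries. Its long transcripts were also low: in genes whose main transcript row exceeds 8 kb, its median deviation from the mean of the 6 libraries was -0.49 on the log2 scale, against 0.01 in genes under 1 kb. Fold changes of genes, ratios between genes and counts of the main lists are therefore given with and without it. Fold changes and counts of single transcript rows are from all 6 libraries unless stated, and may depend on it. In a bulk library, fewer cells of a type and less RNA per cell cannot be told apart.

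The 9 genes spanned a wide range of abundance. Tcap had the highest mean over the 6 libraries, 5182 ± 786 TPM (SD, n = 6), followed by Actn3 at 4155 ± 1614 TPM and Neb at 1549 ± 352 TPM. Ldb3 averaged 705 ± 67.4 TPM, Myom2 358 ± 85.7 TPM, Actn2 342 ± 156 TPM and Myom1 322 ± 76.9 TPM. Ttn averaged 135 ± 20.3 TPM and Myom3 28.5 ± 18.3 TPM. Tcap and Actn3 were not separated by their spread, since Tcap was above Actn3 in 4 of 6 libraries. Myom2, Actn2 and Myom1 were likewise not separated, each neighbour being above the next in 3 of 6 libraries. The other neighbours in this order kept their order in 6 of 6 libraries with ranges that did not overlap. These are sums that include partial rows, which cover only a stretch of the gene. Such rows held 57.6% to 86.2% of Neb (Neb-206 and Neb-208) and 17.7% to 59.8% of Actn3 (a 982-nt row). The order is therefore not one of full-length transcripts. Together the 9 genes held between 1.02% and 1.6% of all TPM in a library, lowest in WT replicate 2 and highest in WT replicate 3.

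**Figure D1:**
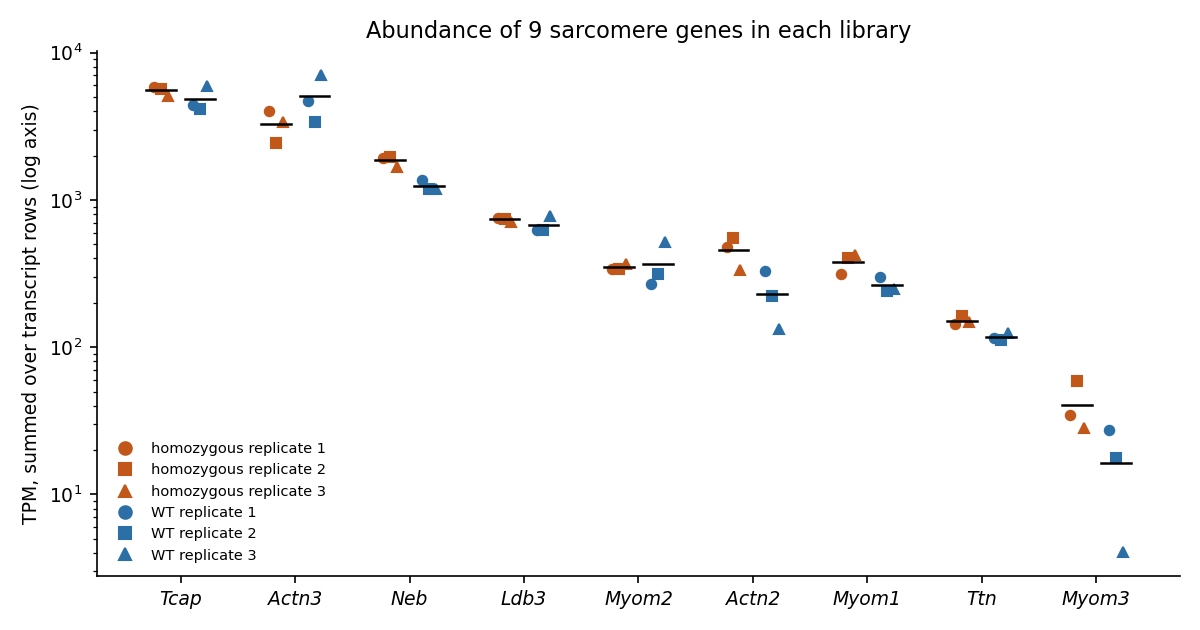
Abundance of the 9 genes in each library, in TPM on a log axis, with the bar at the group mean of 3 libraries. In Ttn, Neb, Actn2, Myom1 and Myom3 all homozygous points lie above all WT points, and WT replicate 3 is the lowest point of Actn2 and Myom3 and the highest of Actn3, Tcap, Ldb3 and Myom2.

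Between genotypes, 7 of the 9 genes had the higher mean in the homozygous group and 2 the lower, and 0 of 9 passed the limma test (adjusted p under 0.05 over 11099 genes). In that test 0% of all genes passed. An unadjusted p under 0.05 was reached by 5 members, all higher in the homozygous group. Over all genes the share at that level was 23.7% in the higher direction and 0.55% in the lower. In 5 genes, Ttn, Neb, Actn2, Myom1 and Myom3, each homozygous library was above each WT library. That pattern held for 34.7% of all genes tested, and the reverse for 0.73%. The members' median log2 fold change was 0.36, against 0.26 over all genes, of which 85.8% were above 0. Without WT replicate 3, 8 of the 9 genes, all but Actn3, had each homozygous library above each WT library, and so did 42.3% of all genes, with the reverse in 2.44%. Fold changes below are homozygous minus WT on the log2(TPM + 1) scale. Because scaling moves the median of all genes, each is also given relative to that median, which was 0.26 with all libraries and 0.20 without WT replicate 3.

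Gene positions are on GRCm38. At the Z-disc, Actn2 (chr13:12269426-12340760, minus strand), the alpha-actinin shared by all muscle fibres, was at 480, 555 and 334 TPM in homozygous replicates 1, 2 and 3 and at 331, 222 and 134 TPM in WT replicates 1, 2 and 3. The groups did not overlap, but the lowest homozygous library exceeded the highest WT library by little. Group means were 456 ± 112 and 229 ± 98.8 TPM (SD, n = 3 per group). The log2 fold change was 1.06 (SE 0.33), with a limma adjusted p of 0.168. WT replicate 3 was the lowest library, and without it the log2 fold change was 0.72. Relative to the median of all genes the difference was 0.79, and 0.52 without WT replicate 3. With the slow-fibre score (the mean log2 level of the 8 slow-fibre markers) as a covariate, it was 0.38.

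Actn3 (chr19:4861216-4877909, minus strand), the alpha-actinin of fast glycolytic fibres, was at 4000, 2449 and 3372 TPM in homozygotes and at 4670, 3358 and 7082 TPM in the WT libraries. The groups overlapped, WT replicate 3 being far above the rest. The means were 3273 ± 780 and 5037 ± 1889 TPM, a log2 fold change of -0.58 (SE 0.31), with a limma adjusted p of 0.258. The value was -0.30 without WT replicate 3. It was -0.85 relative to the median of all genes, and -0.51 without WT replicate 3. With the slow-fibre score as covariate the log2 fold change turned to 0.0095.

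Tcap (chr11:98383811-98384953, plus strand), a small protein that joins titin ends at the Z-disc, was at 5866, 5692 and 5074 TPM in homozygotes and at 4389, 4119 and 5950 TPM in the WT libraries. WT replicate 3 was the highest of the 6 and the other WT libraries the lowest, so the groups overlapped. The log2 fold change was 0.22 (SE 0.20), with a limma adjusted p of 0.482; it was 0.38 without WT replicate 3 and turned to -0.083 with median centring. It was -0.05 relative to the median of all genes, and 0.18 without WT replicate 3. Ldb3 (chr14:34526603-34588682, minus strand), also called ZASP or Cypher, was at 753, 747 and 709 TPM in homozygotes and at 620, 626 and 777 TPM in the WT libraries. It showed the same arrangement, with WT replicate 3 above all others. Its log2 fold change was 0.13 (SE 0.15), with a limma adjusted p of 0.556; it was 0.24 without WT replicate 3 and turned to -0.17 with median centring and to -0.082 once the length trend was removed. It was -0.13 relative to the median of all genes, and 0.04 without WT replicate 3.

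Of the giant proteins, titin (chr2:76703980-76982547, minus strand) was at 143, 164 and 147 TPM in homozygotes and at 116, 112 and 125 TPM in the WT libraries. All homozygous libraries lay above all WT libraries, and the spread within each group was small. The means were 151 ± 11.1 and 118 ± 7.05 TPM, a log2 fold change of 0.36 (SE 0.13), with a limma adjusted p of 0.172. Leaving out WT replicate 3 gave 0.41. It was 0.10 relative to the median of all genes, and 0.21 without WT replicate 3. Nebulin (chr2:52136647-52378474, minus strand) was at 1925, 1966 and 1663 TPM in homozygotes and at 1360, 1193 and 1190 TPM in the WT libraries. Again the groups did not overlap, and here WT replicate 3 was close to WT replicate 2. The means were 1851 ± 165 and 1248 ± 97.0 TPM, a log2 fold change of 0.57 (SE 0.16), with a limma adjusted p of 0.168. Leaving out WT replicate 3 gave 0.54. Relative to the median of all genes it was 0.30, and 0.33 without WT replicate 3. Ttn and Neb were the members that passed once libraries were weighted by how closely they fit the model (array weights). Their limma adjusted p was then 0.0467 and 0.0470. The weights ran from 0.20 in WT replicate 3 to 2.5 in WT replicate 1, so the WT level rested mostly on WT replicate 1. Under those weights 7.06% of all genes passed as higher and 0.234% as lower.

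At the M-band, Myom1 (chr17:71002633-71126856, plus strand), the general myomesin, was at 313, 404 and 424 TPM in homozygotes and at 301, 240 and 250 TPM in the WT libraries. The groups did not overlap, although homozygous replicate 1 and WT replicate 1 were close. The log2 fold change was 0.52 (SE 0.17), with a limma adjusted p of 0.168, and was 0.49 without WT replicate 3. Relative to the median of all genes it was 0.26, and 0.29 without WT replicate 3. Myom2 (chr8:15057653-15133541, plus strand), the myomesin of fast fibres, was at 340, 341 and 369 TPM in homozygotes and at 269, 312 and 519 TPM in the WT libraries. WT replicate 3 was the highest library and the other WT libraries were the lowest. The log2 fold change was -0.01 (SE 0.24), with a limma adjusted p of 0.983, and it turned to 0.28 with array weights and, when WT replicate 3 was left out, to 0.27. Relative to the median of all genes it was -0.27, and 0.07 without WT replicate 3. Myom3 (chr4:135759715-135815564, plus strand), the least abundant member, was at 34.5, 59.0 and 28.2 TPM in homozygotes and at 27.2, 17.7 and 4.08 TPM in the WT libraries. The groups did not overlap, but homozygous replicate 3 and WT replicate 1 were nearly equal. The log2 fold change was 1.51 (SE 0.63), with a limma adjusted p of 0.205. It was 0.79 without WT replicate 3 and 0.11 with the slow-fibre score as covariate. Relative to the median of all genes it was 1.25, and 0.58 without WT replicate 3.

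Over all 6 libraries, transcript length and the fold change moved together across the table. By the length of the row that holds most of a gene's TPM, the median log2 fold change was 0.15 in genes under 1 kb and 0.19 at 1 to 2 kb. It was 0.28 at 2 to 4 kb, 0.36 at 4 to 8 kb and 0.39 in the 330 genes over 8 kb. Of those 330 genes, 95.5% were above 0. From under 1 kb to over 8 kb, the median deviation went from 0.01 to -0.49 in WT replicate 3. It went from -0.06 to -0.08 in WT replicate 1 and from -0.15 to -0.06 in WT replicate 2. In homozygous replicates 1, 2 and 3 it rose from 0.06, 0.10 and 0.09 to 0.12, 0.29 and 0.19. These bins were not computed without WT replicate 3. Titin, whose main row has 81843 nt, was in that longest bin, and its 0.36 was below the bin's median. With a main row far above 8 kb, titin lies where few genes set a length trend. Once such a trend was removed in each library, its log2 fold change turned to -0.19 (SE 0.21), with a limma adjusted p of 0.791. Nebulin kept 0.31 after that step. Its main row is a partial transcript of 2303 nt, however. In a step chosen after seeing the data, each gene was placed by its longest row with at least 1% of its TPM instead. The log2 fold change was then -0.087 (SE 0.16) for Ttn and 0.14 (SE 0.17) for Neb.

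**Figure D2:**
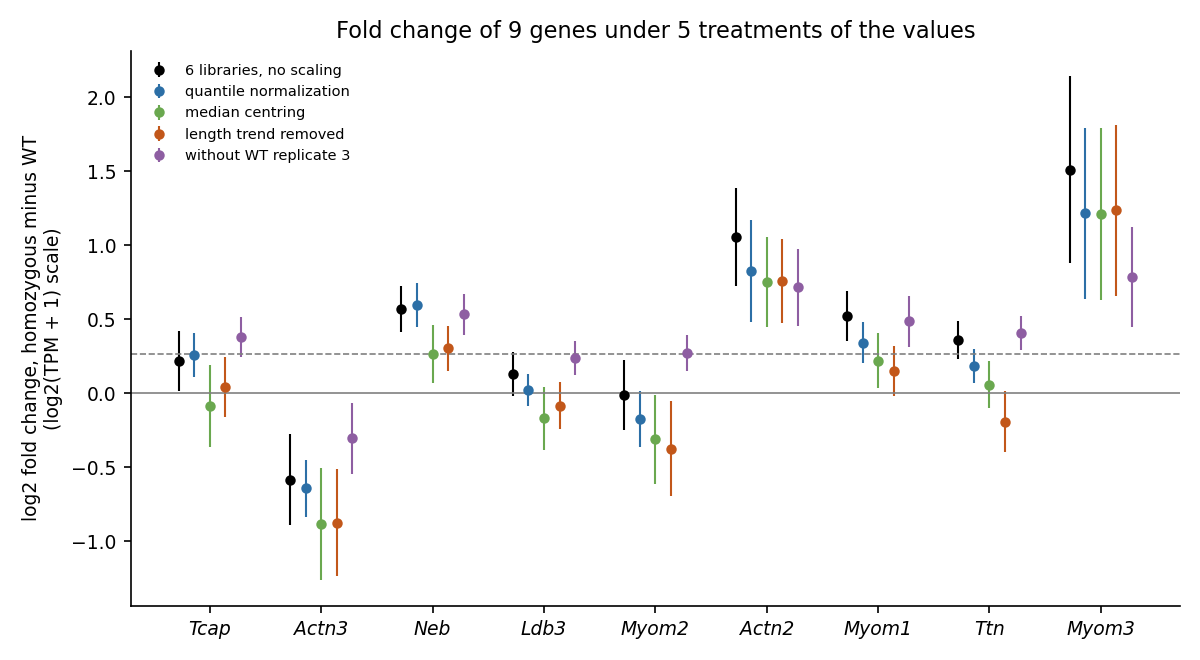
Log2 fold change, homozygous minus WT, of the 9 genes under 5 treatments of the values, with bars of 1 SE; the dashed line is the median of all genes without scaling. Actn2 and Myom3 stay above 0 and Actn3 below 0 in all 5, whereas Ttn turns to -0.19 (SE 0.21) when the length trend is removed.

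The transcript rows resolved these sums further. Of 60 rows, 36 reached 1 TPM in at least 3 libraries and were tested, 19 were too low, and 5 were at 0 in all 6 libraries. Of the 36, 0 passed the limma test over 21165 rows, against 0.0425% of all rows. The lowest limma adjusted p was 0.180, for a 262-nt row of Myom2. Of the tested rows, 27 had a log2 fold change above 0 and 9 below it; over all rows 76.7% were above 0. In 17 rows each homozygous library lay above each WT library, and in 1 row, a partial Actn3 row, each lay below. Over all rows tested these shares were 25.6% and 2.11%. The median log2 fold change of the 36 rows was 0.48, against 0.25 over all rows. Of the 17 rows, 2 reached 1 TPM in no WT library (Ttn-208 and a 3973-nt row of Myom2), so the filter itself fixed their direction. Without these, 15 of 34 rows lay above with no overlap and the median was 0.44. The filter acts on all rows tested in the same way.

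Nebulin has partial rows at several places along a single gene. Its full-length rows, Neb-202 with 157 exons and Neb-203 with 152 exons, held little of its TPM, a summed 45.01, 54.5 and 47.8 TPM in homozygotes and 27.6, 27.1 and 6.17 TPM in the WT libraries. Most of the TPM sat on partial rows that end near the 3′ end of the gene. Neb-206 was at 663, 541 and 595 TPM in homozygotes and at 541, 484 and 618 TPM in the WT libraries, so the groups overlapped there. Neb-210, which ends 41.4 kb (genomic distance) from the 3′ end, was at 351, 358 and 322 TPM in homozygotes and at 218, 188 and 75.6 TPM in the WT libraries. Neb-209, which ends 85.1 kb from it, was at 54.2, 56.7 and 50.2 TPM in homozygotes and at 17.5, 18.1 and 1.44 TPM in the WT libraries. Both rows were separated by genotype, with WT replicate 3 far below the other WT libraries. Their log2 fold changes were 1.23 (SE 0.38) and 2.52 (SE 0.77), with limma adjusted p of 0.276 and 0.275. Without WT replicate 3 the log2 fold change of Neb-209 was 1.54. Neb-204, 183 kb from the 3′ end, was at 5.20, 7.07 and 5.93 TPM in homozygotes and at 7.35, 5.82 and 2.18 TPM in the WT libraries. The groups overlapped at that far row. Full-length Neb-202 also spans its stretch, so the TPM of a row is not the level of the gene at that position. The longer partial row Neb-201 (10298 nt, 74 exons), which reaches the 3′ end, was at 228, 239 and 199.7 TPM in homozygotes and at 133, 167 and 75.5 TPM in WT libraries, with no overlap. The short row Neb-211 (689 nt) was at 58.7, 116 and 29.8 TPM against 37.5, 12.7 and 2.77 TPM, with WT replicate 1 above homozygous replicate 3.

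**Figure D3:**
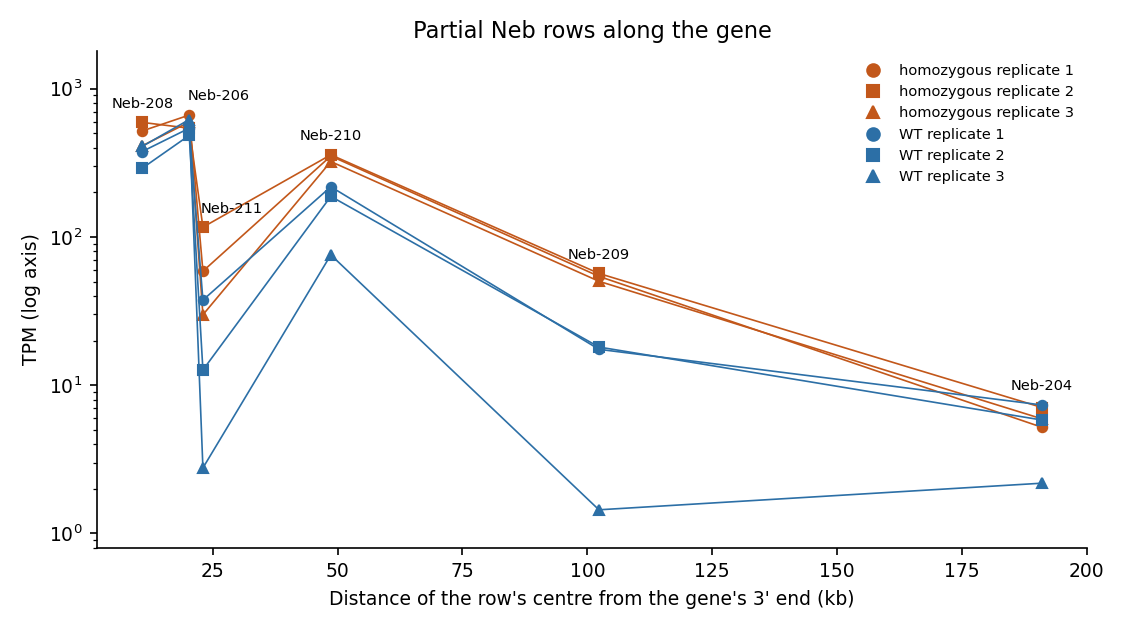
TPM of 6 partial Neb rows on a log axis against the distance of each row's centre from the 3′ end of the gene in kb, with 1 line per library. WT replicate 3 lies with the other libraries at Neb-206 and Neb-208 and is the lowest library at the other 4 rows.

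Of the partial Neb rows, the most abundant, Neb-206 and Neb-208, were compared with full-length Neb-202 exon by exon. Within its span, Neb-206 lacks 7 inner exons of Neb-202, 681 nt in all, of which 5 have 93 nt (31 codons) and the others 105 and 111 nt. Neb-208 has 1 inner exon of 93 nt that Neb-202 lacks, and full-length Neb-203 has another. These 3 exons are printed to show how alike the sequences are that tell the rows apart. The letters are from the GENCODE M21 transcript sequences (GRCm38, minus strand, 5′ to 3′), with capitals at positions that are not identical in all 3.
Neb-208 exon, chr2:52153683-52153775: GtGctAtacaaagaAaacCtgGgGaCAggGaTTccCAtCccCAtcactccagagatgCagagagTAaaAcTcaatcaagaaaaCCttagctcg
Neb-202 and Neb-208 exon, chr2:52153056-52153148: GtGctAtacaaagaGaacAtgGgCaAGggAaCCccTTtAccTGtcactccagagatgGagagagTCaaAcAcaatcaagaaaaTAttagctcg
Neb-201 and Neb-203 exon, chr2:52156355-52156447: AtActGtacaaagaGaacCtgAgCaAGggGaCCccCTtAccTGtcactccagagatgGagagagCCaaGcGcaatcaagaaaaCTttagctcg
Of 93 positions, 69 (74.2%) are identical in all 3, and pairs share between 78.5% and 87.1%. Neb-208, which holds the first of these exons and the second, was at 518, 592 and 411 TPM in homozygotes and at 377, 290 and 408 TPM in the WT libraries. The groups met without overlapping, at 411 and 408 TPM. Neb rows also share whole exons, such as the second one printed. How reads were assigned among the rows was not tested, so the division of TPM among them is uncertain.

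Partial rows near the 3′ end held a smaller share of a gene's TPM in the homozygous libraries in several members. For Actn3 the row was a 982-nt transcript annotated as retaining an intron (ENSMUST00000138811), at 710, 450 and 818 TPM in homozygotes and 1306, 985 and 4237 TPM in the WT libraries. Its share of Actn3 was 17.7%, 18.4% and 24.3% against 28.0%, 29.3% and 59.8%, with no overlap. The full coding row of Actn3 (ENSMUST00000006626) was at 3290, 1999 and 2554 TPM against 3364, 2373 and 2845 TPM, and there the groups overlapped with a log2 fold change of -0.15 (SE 0.23). The lower Actn3 sum was therefore carried for the most part by the 982-nt row. Without WT replicate 3 the mean share of the 982-nt row was 8.53 percentage points lower in the homozygous libraries, against 18.9 with it.

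The same arrangement was seen in a 744-nt row of Myom2 with 29.6%, 24.3% and 28.8% of Myom2 in homozygotes and 30.1%, 34.5% and 44.8% in the WT libraries. A 2551-nt row of Myom3 held 62.0%, 56.0% and 57.4% of Myom3 against 72.0%, 65.8% and 88.1%. Neb-206 and Neb-208 together held 61.4%, 57.6% and 60.5% of Neb against 67.5%, 64.9% and 86.2%. None of these 3 sets of shares overlapped between genotypes, and WT replicate 3 had the highest share each time. Genes outside this set showed it too. In a count chosen after seeing the data, of 459 genes with partial rows in the 3′ part, 98 (21.4%) had each homozygous share below each WT share and 17 (3.7%) above. The median share over those genes was 19.3%, 19.4% and 18.6% in homozygotes and 21.6%, 23.0% and 36.7% in the WT libraries. WT replicate 3 had the highest share in 318 of the 459 genes. Its part in the members' shares can be read from the values without it: Actn3, Myom2 and Neb, the members in that count, still had each homozygous share below each WT share, as did 22.2% of the 459 genes. For Neb that count sums 6 partial rows, with 93.7% to 94.5% of Neb in homozygotes and 95.7% to 99.1% in WT libraries, and not Neb-206 and Neb-208 alone. RNA quality as such was not tested.

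**Figure D4:**
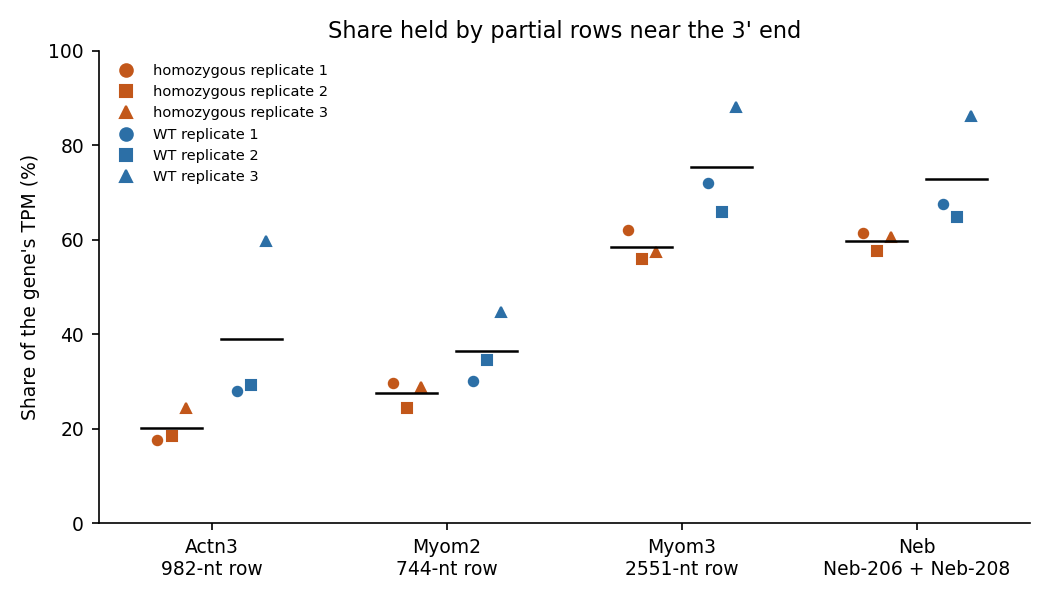
Share of a gene's TPM, in percent, held by partial rows near the 3′ end, for 4 genes in each library, with the bar at the group mean. In each gene the 3 homozygous points lie below the 3 WT points and WT replicate 3 is the highest.

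Actn2 differed in the division between full-length rows. Its main row (ENSMUST00000064204) was at 479, 545 and 334 TPM in homozygotes and at 279, 215 and 102 TPM in the WT libraries, with no overlap. The other (ENSMUST00000168193) was at 0.981, 9.68 and 0.195 TPM in homozygotes and at 51.1, 6.70 and 31.7 TPM in the WT libraries. Its share of Actn2 was 0.205%, 1.75% and 0.0583% against 15.5%, 3.02% and 23.7%. The shares did not overlap although the TPM values did, and the row's log2 fold change of -3.01 (SE 0.99) had a limma adjusted p of 0.284. Both rows encode alpha-actinin and differ at the 5′ end, where the minor row splices out 48 nt upstream of the start codon that the main row keeps. Their division thus rests on a short stretch of sequence.

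Among the titin rows, Ttn-201 (81843 nt, 192 exons) held most of the TPM, at 109, 128 and 109 TPM in homozygotes and at 75.5, 71.3 and 97.8 TPM in the WT libraries. Ttn-204 (100404 nt, 312 exons), which has 124 inner exons that Ttn-201 lacks, was at 5.09, 6.79 and 5.84 TPM against 3.57, 2.62 and 2.17 TPM. Both were higher in each homozygous library, with log2 fold changes of 0.50 (SE 0.16) and 0.88 (SE 0.21). Ttn-202, a row of 16891 nt at the 5′ end of the gene, was at 18.9, 19.5 and 19.3 TPM against 14.1, 15.0 and 13.4 TPM. It is far shorter than Ttn-201 and was higher to a like degree, with a log2 fold change of 0.42 (SE 0.13) and a limma adjusted p of 0.275. Ttn-205 (101674 nt) went the other way in WT replicates 1 and 2, at 8.44 and 8.38 TPM, but was at 0.926 TPM in WT replicate 3 and at 0.110, 0.952 and 1.47 TPM in the homozygous libraries. Of the other Ttn rows tested, Ttn-207, Ttn-209, Ttn-212 and Ttn-225 overlapped between groups and were at 5.90 TPM or less.

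The short row Ttn-208 (549 nt, 5 exons) was at 1.58, 2.93 and 1.28 TPM in the homozygous libraries. It was listed at 0, 0 and 0.0608 TPM in the WT libraries. The row was tested only because of its homozygous values, so this difference is given with no test. It holds 1.79% of Ttn at most. Its exons lie in the middle of the gene, where the spring region of titin, made of short repeats rich in proline, is encoded. Its middle exon, which only Ttn-203 also has, is printed to show these repeats (GENCODE M21, 78 nt, 26 codons, minus strand).
Ttn-208 exon, chr2:76846236-76846313: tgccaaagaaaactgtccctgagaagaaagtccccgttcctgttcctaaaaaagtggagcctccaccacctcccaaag
Exons of this kind occur many times in Ttn. How reads were assigned among its rows was not tested, so the TPM of a row of 549 nt is uncertain.

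Myom1 has an alternative exon of 294 nt, or 98 codons, in 1 of its rows (ENSMUST00000073211; chromosome 17, plus strand, GRCm38). An exon of this sort encodes the elastic EH segment that is typical of embryonic heart myomesin, and it is printed as the sequence that tells this row from the main row (GENCODE M21).
Myom1 alternative exon, chr17:71082203-71082496: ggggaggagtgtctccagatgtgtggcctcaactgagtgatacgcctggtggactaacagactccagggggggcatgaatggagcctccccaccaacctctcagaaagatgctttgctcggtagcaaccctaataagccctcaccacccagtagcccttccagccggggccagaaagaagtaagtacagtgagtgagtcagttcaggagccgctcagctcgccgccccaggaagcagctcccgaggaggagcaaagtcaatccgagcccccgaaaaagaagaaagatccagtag
The row with the exon was at 13.0, 22.6 and 8.21 TPM in homozygotes and at 5.97, 6.54 and 4.202 TPM in the WT libraries. The TPM values did not overlap, but the row's share of Myom1 did, at 4.17%, 5.60% and 1.94% against 1.98%, 2.72% and 1.68%. The main row (ENSMUST00000179759), which lacks the exon, held most of the TPM, at 284, 358 and 396 TPM against 285, 224 and 245 TPM. The groups overlapped in the main row, through homozygous replicate 1. Ldb3 was mostly a short row of 1586 nt (ENSMUST00000022330) that ends 34.7 kb from the 3′ end of the gene, with 74.7% to 75.2% of Ldb3 in homozygotes and 72.9% to 81.5% in the WT libraries. Its share therefore overlapped between genotypes.

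The remaining rows of the myomesins and Ldb3 showed both arrangements. The full row of Myom2 (5075 nt) was at 228, 242 and 251 TPM in homozygotes and at 182, 200 and 283 TPM in WT libraries, where WT replicate 3 was the highest. Its 262-nt row, at 12.4 TPM at most, was higher in each homozygous library. So was its 3973-nt row, at 2.71 TPM at most, which passed the filter only through the homozygous group. The 5575-nt full row of Myom3 was at 12.9, 24.3 and 11.7 TPM against 6.92, 5.15 and 0.371 TPM, with no overlap and a log2 fold change of 2.02 (SE 0.67). The 5354-nt row of Myom1 was at 16.4, 24.0 and 19.4 TPM against 9.61, 10.1 and 1.08 TPM, also with no overlap. WT replicate 3 was the lowest library in both of these full rows. The 4981-nt row of Ldb3 was at 155, 134 and 130 TPM against 121.1, 122.6 and 122.2 TPM, with no overlap, whereas its 2299-nt and 2468-nt rows overlapped between groups. Tcap has a single row of 948 nt, equal to its sum.

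Ratios within a library do not move with the scaling of that library, and 4 were compared. The log2 ratio of Actn2 to Actn3 was -3.06, -2.14 and -3.33 in homozygotes and -3.82, -3.91 and -5.72 in the WT libraries. The groups did not overlap and the difference was 1.64, with p = 0.1 in a two-sided exact permutation test, the smallest that 3 against 3 libraries allow, and 0.267 after Benjamini-Hochberg adjustment over the 4 ratios. It was 1.02 without WT replicate 3 and 1.29 without homozygous replicate 2. In shares, Actn2 made up 10.7%, 18.5% and 9.01% of Actn2 and Actn3 together in homozygotes and 6.61%, 6.20% and 1.85% in the WT libraries. With the main coding row of each gene alone, the shares were 12.7%, 21.4% and 11.5% against 7.66%, 8.32% and 3.45%, so the separation did not rest on the partial Actn3 row.

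The other ratios overlapped between genotypes. The differences were 0.53 for Myom1 to Myom2 (exact permutation p = 0.2), 1.52 for Myom3 to Myom2 (exact permutation p = 0.3) and -0.21 for Ttn to Neb (exact permutation p = 0.2). They shrank to 0.22, 0.51 and -0.13 without WT replicate 3. Myom3 made up 5.01%, 7.34% and 3.44% of the 3 myomesins in homozygotes and 4.56%, 3.11% and 0.528% in the WT libraries. The highest and the lowest of these shares were in homozygous replicate 2 and WT replicate 3, the libraries with the highest and lowest slow-fibre level.

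Markers of fibre type differed between the same libraries. All 8 slow-fibre markers were higher on average in homozygotes and 6 of them did not overlap between groups, with sums of 1668, 9095 and 1984 TPM against 1560, 1006 and 204.6 TPM; 0 of 8 passed the limma test. Over all genes, 34.7% were above with no overlap and 85.8% had a higher mean. With WT replicate 3 left out, again 8 of 8 were higher and 6 did not overlap, and the median log2 fold change was 1.43 against 2.49 with it. Of the 10 fast-fibre markers, 2 were higher, Myh1 and Myh2, and 8 lower, with sums of 126000, 93250 and 114200 TPM against 115700, 111600 and 221500 TPM. With WT replicate 3 left out, 4 were higher and 6 lower. Myh1 encodes the myosin of type 2X fibres and was at 1183, 1253 and 942 TPM against 464, 315 and 239 TPM. Homozygous replicate 1 and WT replicate 1 had nearly equal slow-fibre sums, 1668 and 1560 TPM, and Actn2 shares of 10.7% and 6.61%. Between the same libraries the log2 ratio of Myom1 to Myom2 was lower in the homozygote, at -0.12 against 0.16. This sets 1 library against 1, with no spread, and cannot tell genotype from any other difference between them. The part of fibre type in the members' differences beyond the covariate values given above was not tested.

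**Figure D5:**
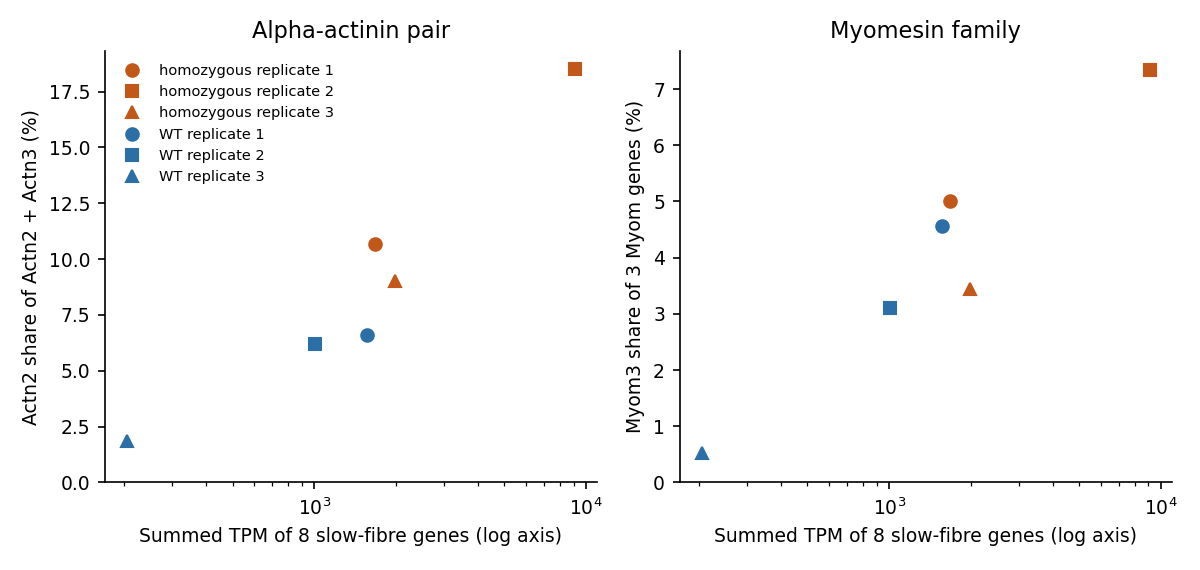
Share of Actn2 in Actn2 and Actn3 together (left) and of Myom3 in the 3 myomesins (right), in percent, against the summed TPM of 8 slow-fibre genes on a log axis, with 1 point per library. Homozygous replicate 2 is at the upper end and WT replicate 3 at the lower end of both panels.

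Markers of other cell types were read as sums per library. The 4 Schwann cell markers were each higher in every homozygous library, with sums of 74.3, 102 and 27.9 TPM against 18.0, 24.8 and 15.7 TPM. Over all genes 34.7% had that order. Without WT replicate 3 it again held for 4 of 4 markers, and for 42.3% of all genes. Of the heart markers, Nppa, Myl7 and Tnni3 were under 1 TPM in all 6 libraries. Sums of the 5 heart markers were between 3.78 and 8.51 TPM in homozygotes and between 2.10 and 5.59 TPM in the WT libraries. Sums of the 4 smooth muscle markers were 36.8 to 37.4 TPM against 22.8 to 33.4 TPM, of the 4 endothelial markers 29.1 to 34.3 TPM against 23.3 to 32.8 TPM, and of the 4 fibroblast markers 151 to 181 TPM against 78.0 to 217 TPM. The fibroblast sum was mostly Dcn, and Col1a1 and Col3a1 had log2 fold changes of -0.20 and -0.23. Sums of the 5 adipocyte markers were 1.85 to 8.22 TPM against 1.96 to 4.47 TPM, with Plin1 and Lep under 1 TPM in every library. Sums of the 5 immune markers were 4.30 to 6.48 TPM against 2.24 to 4.67 TPM, with all but Cd68 under 1 TPM in every library. Sums of the 5 blood markers were 536 to 781 TPM against 476 to 851 TPM. The part of these cell types in the members' differences was not tested.

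Partners of the 9 genes were read from fixed lists. Of 19 other Z-disc genes 18 were tested, 0 passed the limma test, 15 had a higher and 3 a lower homozygous mean, and 10 had each homozygous library above each WT library. Their median log2 fold change was 0.40, against 0.26 over all genes. Without WT replicate 3, 17 were higher, 11 did not overlap and the median was 0.36, against 83.1%, 42.3% and 0.20 over all genes. The largest values were those of Myoz2, the calsarcin of slow fibres, at 1.82 (SE 0.57), and Xirp1, which binds actin, at 1.21 (SE 0.19). The lowest were Myoz1, the calsarcin of fast fibres, at -0.26 (SE 0.24), and Pdlim7, a PDZ-LIM protein, at -0.25 (SE 0.27). In the 5 libraries other than WT replicate 3 these 4 values were 1.25, 1.07, -0.02 and 0.08, so that Pdlim7 changed sign. Myoz2 was at 219, 558 and 236 TPM in homozygotes and at 158, 104 and 38.7 TPM in the WT libraries. Myoz1 was at 2341, 1734 and 2026 TPM against 2196, 1919 and 3377 TPM, so that WT replicate 3 was again the highest library.

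All 6 genes of the thin filament ends, the region that nebulin borders, were tested and 0 passed the limma test. Of these, 5 were higher and 1 lower, 4 with no overlap, and their median log2 fold change was 0.47, against 34.7% with no overlap and a median of 0.26 over all genes. Without WT replicate 3, 6 were higher, 5 did not overlap and the median was 0.46. Lmod2, a leiomodin that promotes filament growth, was at 126, 282 and 156 TPM in homozygotes and at 74.4, 62.9 and 19.8 TPM in the WT libraries, a log2 fold change of 1.94 (SE 0.52). Klhl41, a kelch protein that stabilises nebulin, had 0.73 (SE 0.22). Tmod1 and Tmod4, tropomodulins that cap the pointed end, had 0.03 (SE 0.13) and -0.06 (SE 0.16). In the 5 libraries other than WT replicate 3, Lmod2 was at 1.36, Klhl41 at 0.49, Tmod1 at 0.07 and Tmod4 at 0.09.

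Of the 15 other M-band genes and titin partners, all were tested, 0 passed the limma test, 13 were higher and 2 lower, and 6 had no overlap; their median log2 fold change was 0.21, below the 0.26 of all genes. The shares of the list, 13 and 6 of 15, were near those of all genes, 85.8% and 34.7%. Without WT replicate 3, 14 were higher, 8 did not overlap and the median was 0.25. Fhl1, a LIM protein that binds titin, was at 977, 1400 and 961 TPM in homozygotes and at 600, 404 and 78.8 TPM in the WT libraries. Its log2 fold change of 2.03 (SE 0.72) was the largest of the list, and Fhl2 followed with 0.69 (SE 0.41). The lowest were Ckm, the muscle creatine kinase that binds the M-band, at -0.34 (SE 0.25), and Trim63 (MuRF1), a ubiquitin ligase at the M-band, at -0.04 (SE 0.23). In the 5 libraries other than WT replicate 3, Fhl1 was at 1.15, Fhl2 at 0.36, Ckm at -0.17 and Trim63 at 0.13.

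The closeness of expression profiles was measured as the root-mean-square difference between log2 levels centred on their mean over the 6 libraries, so that a smaller value means a more similar profile. Among the members, Tcap and Ldb3 were closest, at 0.08, and Actn3 and Myom3 farthest apart, at 1.53. Ttn and Neb differed by 0.16, and Actn2 and Actn3 by 1.09. Outside the members, the gene nearest to Actn2 was Mb, at 0.10, followed by Rab15 at 0.11. Nearest to Neb were Rab40c (0.04) and Igf2r (0.05), and nearest to Ttn were Tmem110 (0.02) and Zfp612 (0.03). Nearest to Ldb3 were Tubd1 (0.02) and Trub1 (0.03), and nearest to Tcap were Fbxl15 and Timm50 (0.04 each). Myom1 had Fxr2 and Zfp61 nearest (0.04 each), and Myom2 had Tbl3 (0.07) and Rnf123 (0.08). The nearest genes lay farther away for Actn3, with Slc35e4 (0.15) and Mlf1 (0.15), and for Myom3, with Smtnl1 (0.20) and Apol6 (0.23). The measure is not scaled to a gene's own spread, so genes that vary little between libraries lie close together and variable genes farther apart. It includes WT replicate 3 and was not computed without that library.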

How the data were processed

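The authors deposited 1 table of TPM by transcript (rows) and library (columns), per the file headers; 0 columns were unmatched. The submitters' processing notes name FastQC, Trimmomatic, HISAT2, kallisto and mm10, with no versions; RNA was poly-A selected for a stranded library, per the labels' protocols. TPM was summed over the rows of each symbol. Genes and rows that reached 1 TPM in no fewer than 3 libraries were tested as log2(TPM + 1) with limma 3.58.1 (R 4.3.3; trend, robust; genotype only; Benjamini-Hochberg). A count test had been the first choice, but the table holds TPM, so the limma option was used. A log2 fold change on this scale understates the change of low genes. Positions, lengths and sequences are from GENCODE M21 (GRCm38); 8 of the 60 rows have another version there. Ratios were tested with scipy 1.17.1 (exact, two-sided). The fit was tested on simulated data.

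The members and lists were chosen with earlier results of these data known. Named were all 9 members, their tested rows, the 2 highest and 2 lowest genes of each partner list, and the 2 genes nearest to each member. Paralogs and exon repeats can share reads, and no source used here gives the settings of kallisto or HISAT2. Alternatives were quantile normalization, median centring, removal of a length trend (loess, span 0.5), a pseudocount of 0.1, no filter, the replicate number as block, array weights, a slow-fibre covariate and leaving out each library.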

Additional observations from a re-analysis of the deposited data

How the results depend on the processing

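TPM hides depth, so low rows carry an unknown counting error, and 3 against 3 libraries limit each test. Genes past the threshold numbered 0; array weights gave 810, and leaving out a library gave 0 to 2. Isoforms past it numbered 9. They were 3 with quantile normalization, 5 with median centring, 4 with the length trend removed, 4 with a pseudocount of 0.1, 0 with no filter, 14 with array weights, 0 with the slow-fibre covariate and 0 to 38 without 1 library, the highest without WT replicate 1. Array weights gave 2 member genes, Ttn and Neb, past the threshold, and 0 member isoforms passed under every alternative run. Member genes with each homozygous library above each WT library numbered 5 to 8 without 1 library, the highest without WT replicate 3. The share of all genes with that order rose too, from 34.7% to between 38.7% and 47.4%, and was 42.3% without WT replicate 3. Genes with a lower share in partial 3′ rows in every homozygous library, 98, numbered 102 to 177 without 1 library, 177 without WT replicate 1 and 153 without WT replicate 2.

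The log2 fold change changed sign in these cases, and the cause was not tested. Ttn was -0.19 (SE 0.21) with the length trend removed and -0.087 (SE 0.16) with the trend placed on the longest row. That last alternative was chosen after seeing the data, as were leaving out libraries for the counts without overlap (lists included) and for partial rows. Ldb3 was -0.17 with median centring, -0.082 with the length trend removed and -0.21 on the longest row, and Tcap was -0.083 with median centring. Actn3 was 0.0095 with the slow-fibre covariate. Myom2 was 0.28 with array weights, 0.42 with the covariate, and between -0.20 and 0.27 without 1 library. Quantile normalization moved the median of all genes from 0.26 to -0.01, median centring to -0.04 and the length step to -0.01.

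Deviations of same-numbered libraries of the 2 groups had correlations of -0.07, 0.06 and -0.01, and the other combinations had -0.14 to 0.13. With 3 libraries per group this check cannot decide whether the numbers pair them. With the replicate block, 0 genes, 0 isoforms and 0 members passed, and the Actn2 to Actn3 difference was 1.64, with a smallest possible p of 0.25 by sign-flip.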
